A study of Mus musculus with 7 samples.

Results

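The genes described here are 10 that endothelial cells use to catch leukocytes and to answer inflammatory signals: Selp, Sele, Icam1, Vcam1, Ccl2, Cx3cl1, Ptgs2, Tnfaip2, Tnfaip3 and Nfkbia. They were chosen by gene symbol, and each matched 1 of the 49585 genes in the tables. Stranded total RNA libraries were sequenced from MS-1, an endothelial cell line of the mouse. The 3 control libraries are labelled as wild type, and the 4 others come from MS-1 cells overexpressing LPL, lipoprotein lipase, which splits triglyceride carried in the blood into fatty acids. Cells of both groups grew in DMEM, and the labels give no cytokine, no treatment and no time. They do not say how LPL was introduced, which species it came from, or whether a group is 1 clone or several. The control genotype is wild type, and no library with an empty vector was analysed here. Whether replicates are separate cultures is not stated, and p-values then reflect only how far these libraries spread, which may be technical.

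Leukocytes leave the blood in steps. Selectins on the endothelial surface slow them, chemokines held or shed at that surface activate them, and adhesion molecules of the immunoglobulin family then bind their integrins and hold them. In endothelium most of these genes are induced by TNF, interleukin-1 or bacterial products through NF-kB, a transcription factor kept in the cytoplasm by inhibitor proteins that are themselves NF-kB targets. The inhibitors Nfkbia and Tnfaip3 therefore rise with the genes they restrain and end the response.

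The libraries held between 24328418 and 29210847 reads counted in the sense orientation. Lpl had 8 reads over the 3 controls and 441 ± 13.1 CPM (counts scaled to library depth, SD, n = 4) in the LPL overexpression libraries. The 10 endothelial markers had reads in both groups. They summed to 6601 to 6694 CPM in the controls and 5684 to 5839 CPM with LPL overexpression. Among these 10 genes 6 fell, 1 rose and 3 did not pass, where 21.3% of all genes tested fell and 21.9% rose. Of 10 leukocyte markers 1 was high enough to test, and the list summed to between 2.73 and 4.20 CPM over all libraries. The 10 pigment cell genes summed to between 3.19 and 3.76 CPM in the controls and to 1342 to 1405 CPM with LPL overexpression, and 6 of these had 0 control reads. The part of these pigment cell genes in the differences below was not tested. In bulk RNA, fewer cells expressing a gene and less RNA per cell cannot be told apart. Replicate 4 of LPL overexpression stood apart in Irf1 and Socs3, and results that rest on it are given with and without it.

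All 10 genes passed the filter on low counts. With LPL overexpression 5 of them fell, Tnfaip2, Selp, Ptgs2, Vcam1 and Nfkbia, by 11.9% to 27.9%. Ccl2 rose by 45.0%. Sele, Icam1, Cx3cl1 and Tnfaip3 had higher means but did not pass edgeR's test at an adjusted p of 0.05. Of all 13639 genes tested 43.2% were called, 21.3% lower and 21.9% higher, which is the background for 5 and 1 of 10. Higher genes made up 50.7% of the called genes here and 61.5% in limma on log2(TPM + 0.5). Without LPL overexpression replicate 4 the counts were 5 lower and 3 higher, against 42.5% of all genes called. In 7 of the 10 the groups did not overlap, against 44.6% of all genes. The median log2 fold change was -0.02 over the 10 genes and 0.00 over all genes tested.

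**Figure D1:**
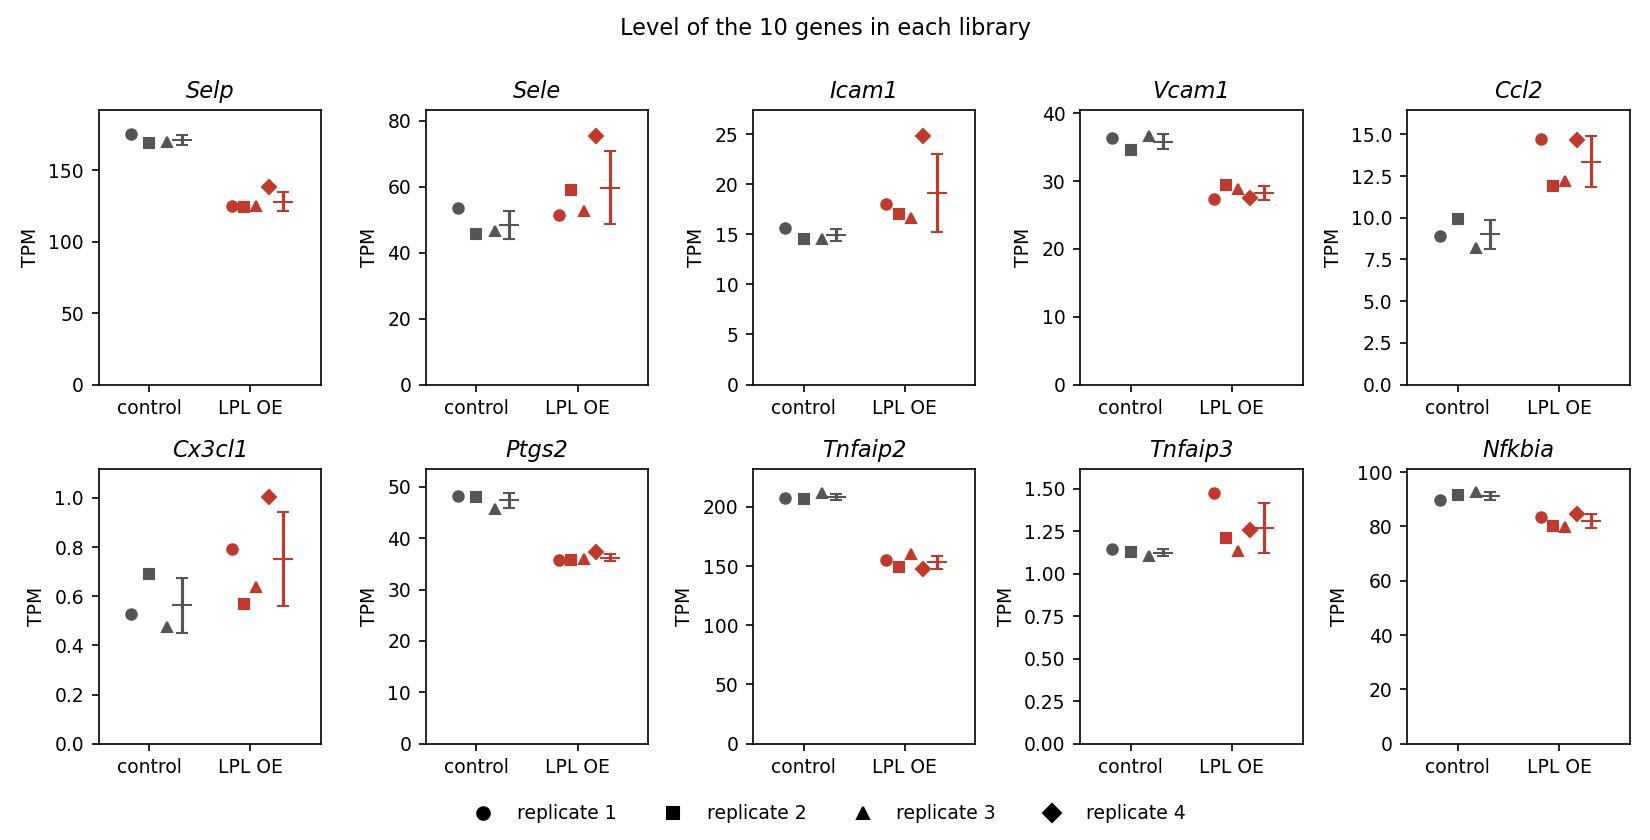
Level of each gene in TPM (transcripts scaled to length and depth, y axis, starting at 0) in the 3 control libraries (grey) and the 4 LPL overexpression (LPL OE) libraries (red), with the symbol giving the replicate and the bar the mean and SD. Selp, Vcam1, Ptgs2, Tnfaip2 and Nfkbia lie lower with LPL overexpression without overlap, and replicate 4 holds the highest Sele (75.4 TPM) and Icam1 (24.8 TPM).

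The upstream sequence is shown for 5 genes, because Sele and Icam1 shared their highest value in 1 library and Nfkbia and Tnfaip3 are the feedback targets of NF-kB, with Selp beside its relative Sele. The 250 bases before the RefSeq start (build GRCm38.p6) were read for the 8 genes with an entry; Vcam1 and Ccl2 had none. Both strands were searched for the kappaB consensus bound by NF-kB, for a shorter kappaB-like motif GGAANTTCC added after the windows had been seen, and for the STAT motif TTCNNNGAA. Capitals mark matches to these 3 motifs. Windows are Sele chr1:164047984-164048233 (plus strand), Selp chr1:164115014-164115263 (plus), Icam1 chr9:21015690-21015939 (plus), Nfkbia chr12:55492648-55492897 (minus) and Tnfaip3 chr10:19015411-19015660 (minus).
Sele: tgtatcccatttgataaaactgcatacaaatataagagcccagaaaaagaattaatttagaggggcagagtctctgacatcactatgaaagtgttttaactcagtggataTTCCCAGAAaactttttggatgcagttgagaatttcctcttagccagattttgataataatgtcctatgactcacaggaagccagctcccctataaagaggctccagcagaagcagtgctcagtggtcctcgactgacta
Selp: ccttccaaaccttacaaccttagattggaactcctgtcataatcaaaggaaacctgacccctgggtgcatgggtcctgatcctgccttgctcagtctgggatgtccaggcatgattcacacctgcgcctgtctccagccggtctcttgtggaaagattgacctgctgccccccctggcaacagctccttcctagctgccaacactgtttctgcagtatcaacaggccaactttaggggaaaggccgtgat
Icam1: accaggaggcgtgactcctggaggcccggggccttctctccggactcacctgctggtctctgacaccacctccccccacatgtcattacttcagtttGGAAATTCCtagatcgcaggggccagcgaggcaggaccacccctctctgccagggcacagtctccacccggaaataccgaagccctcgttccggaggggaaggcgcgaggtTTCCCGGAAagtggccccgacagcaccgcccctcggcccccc
Nfkbia: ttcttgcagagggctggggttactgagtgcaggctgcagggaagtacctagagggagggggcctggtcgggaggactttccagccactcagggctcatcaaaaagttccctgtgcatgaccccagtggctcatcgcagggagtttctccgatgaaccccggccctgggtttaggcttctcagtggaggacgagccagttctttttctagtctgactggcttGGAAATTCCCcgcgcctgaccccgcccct
Tnfaip3: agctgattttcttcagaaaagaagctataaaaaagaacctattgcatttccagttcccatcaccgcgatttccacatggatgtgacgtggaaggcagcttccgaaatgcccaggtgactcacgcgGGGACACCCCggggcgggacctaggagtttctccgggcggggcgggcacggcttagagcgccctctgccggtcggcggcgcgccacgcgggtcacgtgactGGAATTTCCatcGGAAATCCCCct

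The STAT motif was present in 2 of the 8 genes with a window, Sele (from -140 to -132 before the start) and Icam1 (from -42 to -34), against 7.02% of all 32851 windows. It was also present for Irf1 (from -90 to -82), beside a kappaB consensus match (from -13 to -4), and for Socs3 (from -154 to -146). Among the 8 genes the kappaB consensus was present for Nfkbia (from -29 to -20) and at 2 places for Tnfaip3, against 3.90% of windows. The shorter motif was present for Icam1 (from -153 to -145), Tnfaip3 and Nfkbia, where it overlaps the consensus match, and in 0.813% of all windows. Because it was added after the windows of these genes had been seen, that share gives no support for an excess among them. The AP-1 motif TGANTCA was present for Selp, Sele and Tnfaip3 (6.75% of windows), TATAAA for Sele, Cx3cl1 and Tnfaip3 (12.4%), and GGGCGG for 6 genes (32.7%). Selp, Cx3cl1, Ptgs2 and Tnfaip2 held none of the 3 marked motifs in this window. Selp, Cx3cl1, Ptgs2 and Nfkbia, which have no STAT match, also had their highest LPL overexpression value in replicate 4. Whether the STAT motif goes with the values of that library was not tested. Tnfaip3 has another RefSeq window, chr10:19011964-19012213, which held none of them. The Tnfaip3 window shown lies mostly within the gene as counted here, which spans 19000910 to 19015657. The windows of Cx3cl1 and Tnfaip2 also reach into their counted genes. A match describes letters and not a bound site, and a window without one says nothing about the factor.

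By level per length, the order of the 10 genes was the same in both groups. In the controls it ran from Tnfaip2 (208 ± 2.52 TPM, SD, n = 3) and Selp (171 ± 3.38 TPM) through Nfkbia, Sele, Ptgs2, Vcam1, Icam1 and Ccl2 to Tnfaip3 (1.12 ± 0.0213 TPM) and Cx3cl1 (0.564 ± 0.112 TPM). Neighbours in this order had separate ranges, except Sele and Ptgs2 in the controls, at 48.5 ± 4.24 and 47.4 ± 1.42 TPM. With LPL overexpression the ranges of Sele and Ptgs2 separated, at 59.6 ± 11.1 and 36.2 ± 0.723 TPM (SD, n = 4). The step from Ccl2 down to Tnfaip3 was the largest, 8.01 times in the controls and 10.5 times with LPL overexpression. Thus the P-selectin and TNF-induced Tnfaip2 transcripts were abundant without a stated cytokine, and the fractalkine transcript was close to the lower limit.

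Selp encodes P-selectin, which endothelium stores in Weibel-Palade bodies and moves to its surface within minutes of stimulation. Its gene, ENSMUSG00000026580.16, spans 164115264 to 164150026 of chromosome 1 (mm10, plus strand). It stood at 175, 169 and 170.0 TPM in the controls and at 125, 125, 125 and 138 TPM in the LPL overexpression libraries. Each LPL overexpression library was below each control, and replicate 4 was the highest of its group. On the log2 scale Selp fell by 0.45 (SE 0.03; edgeR, adjusted p = 2.91e-17), and by 0.48 without replicate 4. Antisense genes overlap Selp, and counting without strand kept 73.4% of its reads, with a log2 fold change of -0.44.

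Sele encodes E-selectin, which is made anew on activated endothelium and is not stored. It lies 57587 bases before Selp on the same strand of chromosome 1 (164048234 to 164057677). Its level was 53.4, 45.6 and 46.5 TPM in the controls and 51.4, 59.0, 52.6 and 75.4 TPM with LPL overexpression. The groups overlapped: in CPM 2 of the 4 LPL overexpression libraries lay above all controls. On the log2 scale the difference was 0.27 (SE 0.16), with a 95% interval of -0.14 to 0.69 (edgeR, adjusted p = 0.251), that is from 0.906 to 1.61 times the control. Without replicate 4 the difference was smaller, 0.15 (SE 0.05), and passed (adjusted p = 0.0124). The groups still overlapped then, as only replicate 2 (51.9 CPM) lay above the highest control (47.2 CPM).

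The levels of the selectin transcripts were also set against each other, as a description only. The ratio of Sele to Selp in TPM was 0.305, 0.270 and 0.273 in the controls and 0.412, 0.473, 0.421 and 0.546 with LPL overexpression. On the log2 scale the difference was 0.70, and 0.62 without replicate 4. This ratio and the one of Icam1 to Vcam1 were chosen after their values were seen, so a permutation test run on each is not counted as support. Selp alone separates the groups, so a ratio that does so adds no support.

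Icam1 encodes the ligand of the leukocyte integrins LFA-1 and Mac-1, present at low level on resting endothelium and strongly induced by cytokines. The gene (ENSMUSG00000037405.8) lies on the plus strand of chromosome 9 (21015985 to 21028817). It stood at 15.6, 14.5 and 14.6 TPM in the controls and at 18.0, 17.0, 16.6 and 24.8 TPM with LPL overexpression. Each LPL overexpression library was above each control, with replicates 1 to 3 close together and replicate 4 well above them. Over all libraries the log2 difference was 0.34 (SE 0.17, 95% interval -0.10 to 0.77) and did not pass (adjusted p = 0.186 in edgeR). Without replicate 4 it was 0.19 (SE 0.06, 95% interval 0.08 to 0.30) and passed (adjusted p = 0.00365). The fitted biological coefficient of variation was 14.2% with replicate 4 and 2.44% without it, and it fell from 14.2% to 3.09% for Sele.

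Vcam1 encodes the ligand of the integrin VLA-4 carried by monocytes and lymphocytes. The gene (ENSMUSG00000027962.14) lies on the minus strand of chromosome 3 (116109949 to 116129688). Its level was 36.3, 34.6 and 36.7 TPM in the controls and 27.3, 29.4, 28.8 and 27.6 TPM with LPL overexpression. No LPL overexpression library reached a control, and replicate 4 lay within the range of its group. Vcam1 fell by 0.37 on the log2 scale (SE 0.03; edgeR, adjusted p = 1.20e-13), and by 0.35 without replicate 4. The ratio of Icam1 to Vcam1 in TPM was 0.430, 0.420 and 0.398 in the controls against 0.660, 0.579, 0.577 and 0.901 with LPL overexpression. Its log2 difference of 0.68 was 0.54 without replicate 4, and it is a description, since both genes separate the groups by themselves.

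**Figure D2:**
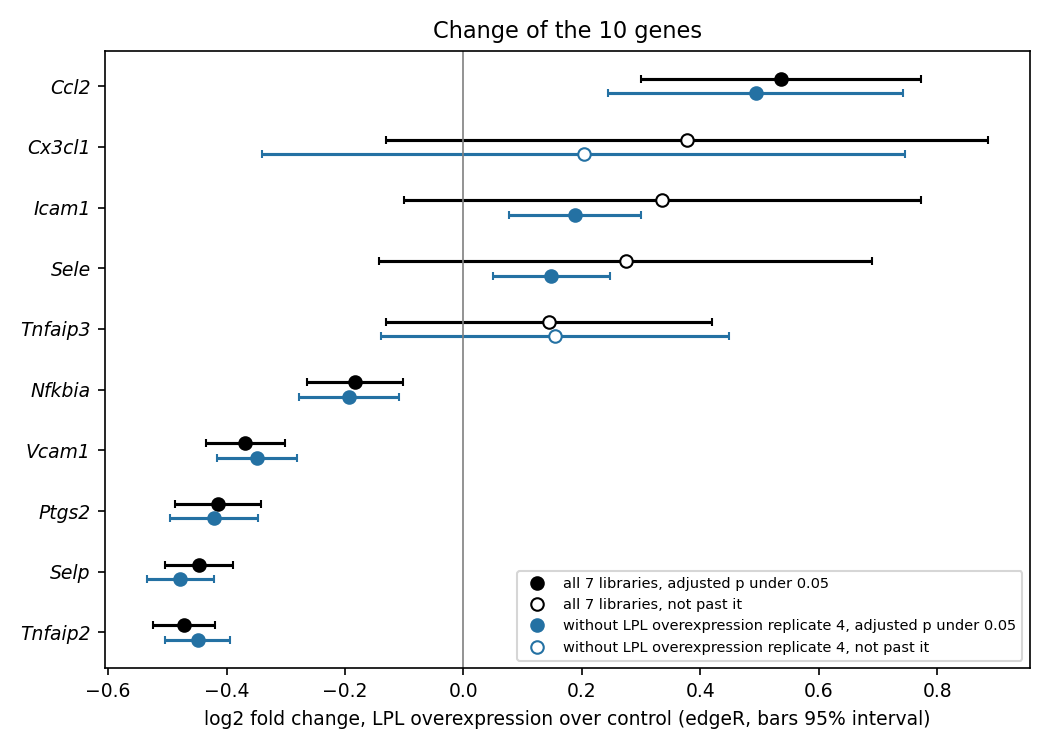
Log2 fold change of LPL overexpression over control (x axis) with its 95% interval for each gene, fitted on all 7 libraries (black) and without LPL overexpression replicate 4 (blue), filled where the adjusted p is under 0.05. Leaving the library out narrows the intervals of Icam1 and Sele, which then pass at 0.19 and 0.15, and leaves the 5 falls in place.

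Ccl2 encodes the main chemokine for monocytes that carry the receptor Ccr2, and was the member that rose. The gene (ENSMUSG00000035385.5) lies on the plus strand of chromosome 11 (82035571 to 82037453). It had 83, 96 and 75 reads in the controls and 124, 121, 105 and 139 in the LPL overexpression libraries. Per length this was 8.88, 9.94 and 8.21 TPM against 14.7, 11.9, 12.2 and 14.6 TPM, with no overlap. Ccl2 rose by 0.54 on the log2 scale (SE 0.12, 95% interval 0.30 to 0.77; edgeR, adjusted p = 1.68e-04), and by 0.49 without replicate 4. Pigment cell genes were present in the same 4 libraries, and their part in this rise was not tested.

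Cx3cl1 encodes fractalkine, a chemokine tethered to the endothelial surface and released by metalloproteases. The gene (ENSMUSG00000031778.13) lies on the plus strand of chromosome 8 (94772009 to 94782427). It had 17, 23 and 15 reads in the controls and 23, 20, 19 and 33 with LPL overexpression, the fewest of the 10 genes. The groups overlapped, and replicate 4 again held the highest value, at 1.01 TPM. With so few reads the log2 difference of 0.38 (SE 0.25) has a 95% interval from -0.13 to 0.89 (edgeR, adjusted p = 0.237). Without replicate 4 the difference was 0.20, with an interval from -0.34 to 0.75. At this depth a rise of 1.85-fold and a fall to 0.914 of the control lie within the interval.

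Ptgs2 encodes the inducible cyclooxygenase that starts prostaglandin synthesis in inflamed tissue. The gene (ENSMUSG00000032487.8) lies on the plus strand of chromosome 1 (150100031 to 150108227). It stood at 48.3, 48.1 and 45.7 TPM in the controls and at 35.8, 35.8, 36.0 and 37.3 TPM with LPL overexpression. The 4 LPL overexpression libraries were closer to each other than the controls were, and replicate 4 was the highest. The fall was 0.41 on the log2 scale (SE 0.04; edgeR, adjusted p = 5.07e-14), and Ptgs2 fell by 0.42 without replicate 4.

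Tnfaip2 is a gene first described as induced by TNF in endothelium, whose product takes part in membrane tubes that link cells. The gene (ENSMUSG00000021281.15) lies on the plus strand of chromosome 12 (111442469 to 111455018). It was the most abundant of the 10, at 207, 207 and 211 TPM in the controls and 155, 149, 160.3 and 148 TPM with LPL overexpression. Tnfaip2 fell by 0.47 on the log2 scale (SE 0.03; edgeR, adjusted p = 1.56e-21). Without replicate 4 Tnfaip2 fell by 0.45 and Selp, which then fell most, by 0.48. Here replicate 4 was the lowest of its group, where for Selp and Ptgs2 it was the highest.

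Nfkbia encodes the inhibitor that holds NF-kB in the cytoplasm, and Tnfaip3 a ubiquitin-editing enzyme that shuts the pathway off further upstream. Nfkbia (ENSMUSG00000021025.7, minus strand of chromosome 12, 55489411 to 55492647) stood at 89.7, 91.6 and 92.7 TPM in the controls and 83.5, 80.1, 79.6 and 84.7 TPM with LPL overexpression. Each LPL overexpression library was below each control, by less than for the other genes that fell, and Nfkbia fell by 0.18 on the log2 scale (SE 0.04; edgeR, adjusted p = 1.55e-04). Tnfaip3 (ENSMUSG00000019850.11, minus strand of chromosome 10, 19000910 to 19015657) was at 1.15, 1.13 and 1.10 TPM against 1.48, 1.21, 1.13 and 1.26 TPM. In CPM 3 of the 4 LPL overexpression libraries were above all controls and replicate 3 was not. The log2 difference of Tnfaip3, 0.14 (SE 0.14, 95% interval -0.13 to 0.42), did not pass (adjusted p = 0.419 in edgeR), with 62 to 79 reads per library. Without replicate 1 of LPL overexpression it was 0.07.

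LPL overexpression replicate 4 differed from the other 3 libraries of its group in some of the 10 genes and not in others. It had 32.5 CPM of Icam1 against 22.6 ± 0.944 CPM (SD, n = 3) in replicates 1 to 3, or 1.44 times as much. For Sele the values were 65.9 and 47.6 ± 3.77 CPM (1.39 times), and for Selp 183 and 166 ± 0.634 CPM (1.10 times). Vcam1, Ptgs2, Tnfaip2, Tnfaip3 and Nfkbia in replicate 4 were between 0.952 and 1.04 times the mean of the other 3. Cx3cl1, with 33 reads, was at 1.51 times and Ccl2 at 1.13 times that mean. In the same library Irf1, an interferon-induced transcription factor, was at 286 CPM against 20.6 ± 1.36 CPM, and Socs3, a feedback inhibitor of cytokine receptors, at 39.8 against 11.5 ± 0.964 CPM. Further genes, chosen after their values were seen, stood at 1.81 times (Nfkbiz, a nuclear regulator of NF-kB targets), 3.07 times (Zfp36, an mRNA decay factor), 1.68 times (Egr1) and 1.53 times (Junb) the mean of the other 3. With 1 library there is no test of this difference.

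**Figure D3:**
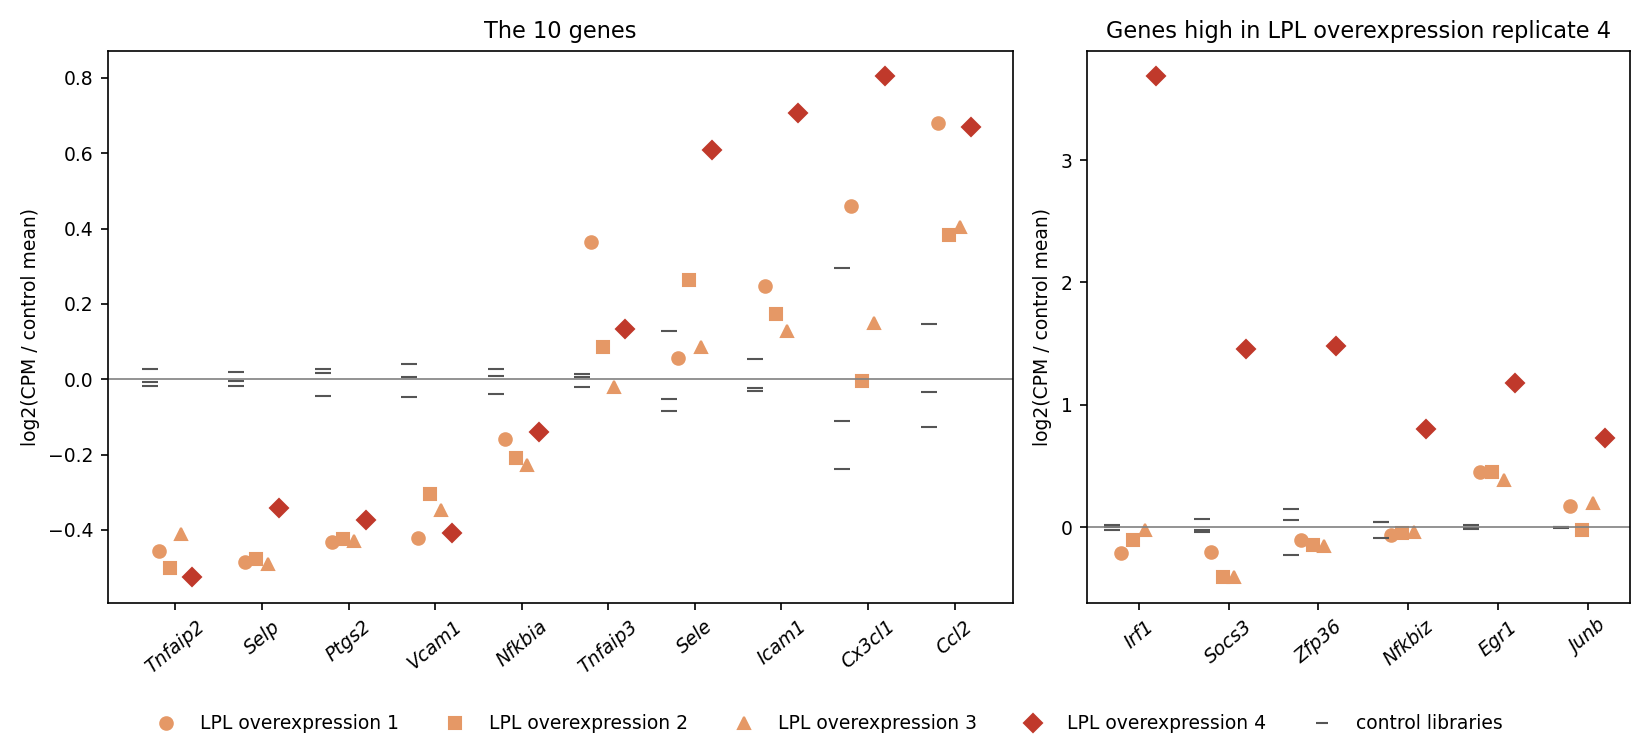
Each LPL overexpression library as log2 of its CPM over the control mean (y axis) for the 10 genes (left) and for 6 genes high in replicate 4 (right, its own scale), with dashes for the controls. Replicate 4 (diamonds) lies above the other 3 for Sele, Icam1 and Cx3cl1 and among them for Vcam1 and Tnfaip3, while Irf1 reaches 13.9 times the mean of replicates 1 to 3.

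Some of the 10 genes varied together within groups. Over the 7 libraries, after subtracting each group's mean of log2 CPM, Pearson's r was 0.98 between Icam1 and Selp, 0.94 between Sele and Selp and 0.89 between Sele and Icam1. Tnfaip2 had an r of -0.82 with Sele, Ccl2 an r of 0.93 with Cx3cl1, and Vcam1 an r of -0.97 with Ccl2. These are descriptions over 7 points that share libraries and depth. Replicate 4 held the highest LPL overexpression value of Selp, Sele, Icam1 and Cx3cl1, and also of Ptgs2 and Nfkbia. Among 9013 genes with a mean of at least 10 CPM, the most alike to Selp were Ammecr1l, Egr1 and Fiz1 (r of 0.98 each). The most alike to Tnfaip2 were Setdb2, Vps29 and Nudt12, and to Ptgs2 Lyst, Acvr2a and Pias4. For Ccl2 they were Tab2, Zxdc and Zcchc8. All were picked as the highest of 9013 over 7 libraries, so such an r can come from the search alone.

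The receptors, kinases and Rel proteins that carry NF-kB signals were called about as often as all genes. Of 29 such genes, all tested, 3 rose and 9 fell, and the median log2 fold change was -0.02, against 43.2% of all genes called. Il1r1, the interleukin-1 receptor, rose from 51.5 ± 2.66 CPM (SD, n = 3) to 61.4 ± 2.48 CPM (SD, n = 4). Tlr4, the receptor of bacterial lipopolysaccharide, fell from 184 ± 6.50 to 163 ± 2.56 CPM, and Tnfrsf1a, the main TNF receptor, from 134 ± 2.24 to 124 ± 5.67 CPM. Map3k7, the kinase that activates the inhibitor kinase complex, fell by 0.17 on the log2 scale (SE 0.03), and Ltbr, a receptor of lymphotoxin, fell by 0.15 (SE 0.03). Rela, the transactivating subunit, was at 107 ± 2.94 and 106 ± 3.90 CPM and did not pass (adjusted p = 0.703 in edgeR). Of 14 further inhibitors and feedback genes 1 rose, Tnip1 (32.8 ± 0.633 to 37.5 CPM), and 1 fell, Rnf11 (140.3 ± 0.839 to 126 ± 2.95 CPM).

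Other molecules of leukocyte adhesion and passage mostly fell, as Selp and Vcam1 but not Icam1 did. Of 18 tested (20 listed) 14 fell, 3 rose and 1 did not pass, where 21.3% of all genes fell and 21.9% rose. Their median log2 difference was -0.18, near the -0.15 of the 10 endothelial markers, which share Pecam1, Cdh5 and Emcn with this list. Podxl, a sialomucin of the luminal surface, fell from 244 ± 3.04 to 170 ± 2.23 CPM and Cd47, the signal that restrains phagocytes, from 224 ± 10.3 to 167 ± 4.32 CPM. Pecam1, used by leukocytes at endothelial junctions, fell by 0.40 on the log2 scale (SE 0.02). Cd44, the hyaluronan receptor, fell by 0.31 (SE 0.02), and Cd34, a sialomucin, fell by 0.20 (SE 0.02). The pigment cell genes were present in these 4 libraries, and their part in these falls was not tested.

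Chemokines and cytokines other than the members were mostly too low to test. Of 25 listed genes 9 could be tested, of which 3 rose and 2 fell, or 55.6% called against 43.2% of all genes. Il1b, Ccl8, Ccl20, Cxcl11, Csf2 and Ackr1 had 0 reads in every library. Csf1, the growth factor of macrophages, rose from 120.4 ± 6.88 to 209 ± 15.8 CPM, and Ccl5, a T cell and monocyte chemokine, from 2.72 ± 0.709 to 4.08 ± 0.126 CPM. Ackr3, a scavenging receptor of Cxcl12, fell from 44.1 ± 2.49 to 21.4 ± 0.836 CPM, and Cxcl12 itself from 765 ± 20.3 to 677 ± 6.63 CPM. Cxcl10 was at 3.64 ± 0.294 and 4.77 ± 1.22 CPM and did not pass (adjusted p = 0.0741 in edgeR). Tnf and Il6, cytokines that take part in this program, had at most 2 reads in any library.

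Genes listed for Weibel-Palade bodies, the store of P-selectin, went both ways. Of 17 tested (20 listed) 7 rose and 5 fell, against 43.2% of all genes called, and 2 fell in limma on log2(TPM + 0.5) or log2(TPM + 1). Angpt2, an angiopoietin held in these granules, fell from 145 ± 5.82 to 87.3 ± 6.02 CPM. Cd63, a granule membrane protein, fell from 401 ± 14.0 to 376 ± 6.20 CPM and Rab35 from 132 ± 2.77 to 122 ± 4.61 CPM, while Vamp3 rose from 110.0 ± 1.68 to 126 ± 2.91 CPM. The 2 largest rises were Mlph, with 0 control reads and at least 979-fold above a floor of 3 reads over the controls, and Rab27a, from 6.80 ± 0.398 to 21.6 ± 0.862 CPM. Both serve melanosome transport, and the libraries of these rises are those with the pigment cell genes. Mlph is in this list by prior choice, and with 0 control reads a part in the granules of these cells is not shown here. Vwf, a gene of this list named after its values had been seen, had only 96 reads over the controls and did not pass.

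Around Ptgs2 and Cx3cl1, prostaglandin genes and sheddases were called about as often as the 43.2% of all genes. Of 10 tested prostaglandin genes (15 listed) 3 rose and 2 fell. Ptgs1, the constitutive cyclooxygenase, rose from 15.8 ± 0.718 to 19.3 ± 1.94 CPM where Ptgs2 fell. Abcc4, which exports prostaglandins, rose from 13.3 ± 0.276 to 17.7 ± 1.49 CPM, and Slco2a1, which takes them up, fell from 3.10 ± 0.304 to 2.00 ± 0.312 CPM. Hpgds, a prostaglandin D synthase, had 1 control read and 185 reads in the LPL overexpression libraries, which carried the pigment cell genes. Of 8 sheddases and their regulators 1 rose and 3 fell. Adam10, which releases fractalkine, fell by 0.08 on the log2 scale (SE 0.02). Adam15 fell by 0.29 (SE 0.03) and Adam8 fell by 0.31 (SE 0.04), while Adam9 rose by 0.14 (SE 0.03). Adam17, which sheds Vcam1 protein and other substrates, was at 193 ± 5.94 CPM in the controls and 185 CPM with LPL overexpression and did not pass (adjusted p = 0.0725 in edgeR).

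Immediate early genes and AP-1 members, which often act beside NF-kB, were called in 43.8%, near the 43.2% of all genes. Of 16 tested (18 listed) 6 fell and 1 rose, Klf6 by 0.09 on the log2 scale. Rises numbered 2 to 4 in 8 of the 15 alternatives. Egr1 (log2 difference 0.66), Fos (0.77), Zfp36 (0.48) and Junb (0.30), each highest in replicate 4, did not pass. Egr1 was above all controls in 4 of 4 LPL overexpression libraries. In replicates 1 to 3 it was at 37.3 ± 1.04 CPM, against 27.7 ± 0.372 CPM in the controls (SD, n = 3). The same means were 0.810 and 0.670 CPM for Fos, 4.70 and 5.16 CPM for Zfp36, and 8.91 and 8.19 CPM for Junb. Klf6 and these 4 genes were named after their values had been seen. Klf2, a factor that restrains endothelial inflammation under flow, fell from 140 ± 5.10 to 109 ± 5.30 CPM, Klf4 from 17.8 ± 0.564 to 14.5 ± 0.927 CPM and Fosl1 from 196 ± 7.12 to 147 ± 3.62 CPM. Jun, an AP-1 subunit, fell by 0.16 on the log2 scale (SE 0.03).

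Genes of cytokine signalling through JAK and STAT proteins held rises in receptors and in Stat3. Of 13 tested 6 rose and 1 fell, or 53.8% called against 43.2% of all genes, where 21.9% rose and 21.3% fell. The median log2 difference of the list was 0.37. Without replicate 4 the counts were 6 and 3 and the median 0.00. Irf1 and Socs3 had lower means in replicates 1 to 3 (20.6 and 11.5 CPM) than in the controls (22.2 and 14.5 CPM). Stat3 rose from 43.2 ± 0.810 to 73.7 ± 2.47 CPM, above the controls in 4 of 4 libraries, and Stat5a by 0.48 on the log2 scale (SE 0.07). The receptors Osmr and Lifr, for cytokines of the interleukin-6 family, rose by 0.38 (SE 0.04) and 0.37 (SE 0.04) on the log2 scale. Their shared subunit Il6st was at 211 ± 7.86 and 211 ± 3.60 CPM. Here too the pigment cell genes were present in the libraries with the higher values, and their part was not tested.

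**Figure D4:**
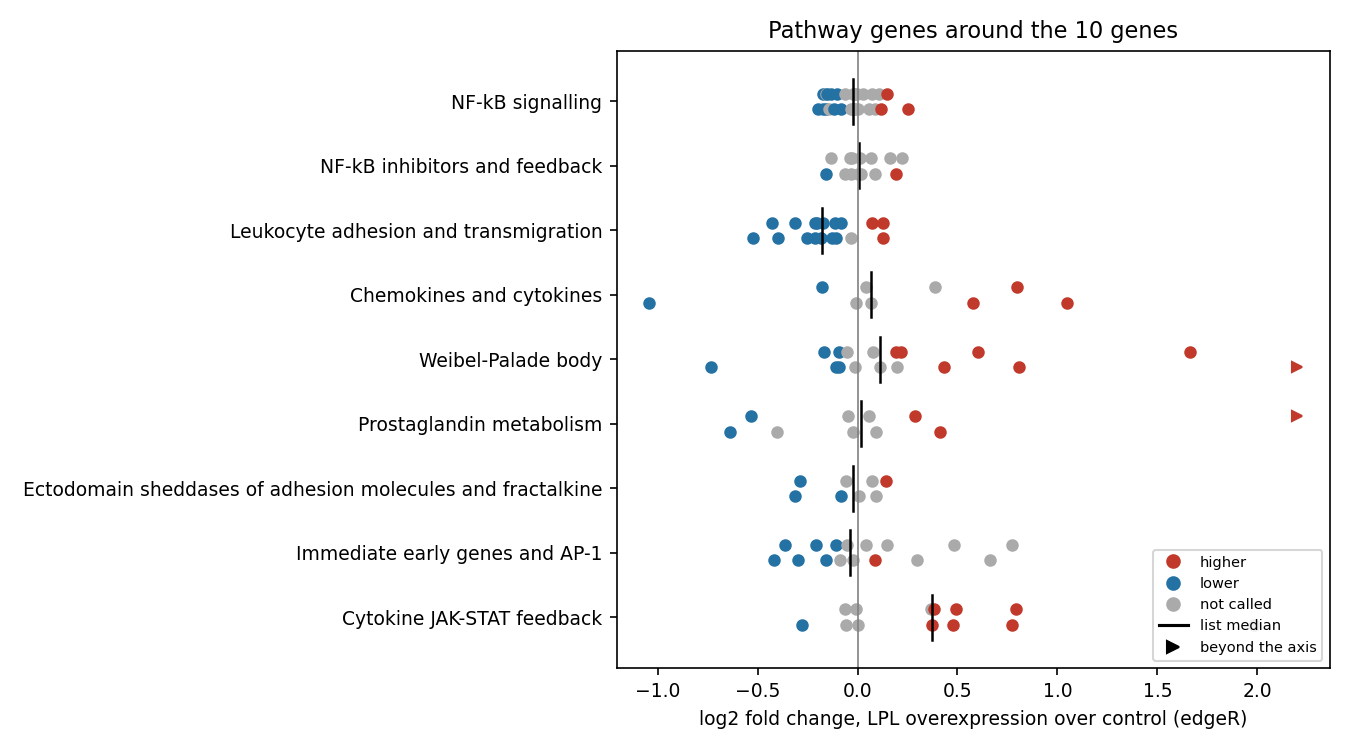
Log2 fold change (x axis) of each tested gene in the 9 lists around the 10 genes, red where called higher, blue where called lower and grey where not called, with a black line at each list's median. Adhesion and transmigration genes lie mostly below 0 (median -0.18) and NF-kB signalling genes close to 0, and Mlph and Hpgds lie beyond the axis.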

How the data were processed

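Total RNA of MS-1 cells was sequenced in 3 control and 4 LPL overexpression libraries. The authors aligned reads with STAR to mm10, per the submitters' processing notes. The annotation release is not given in the sources used here. The deposited counts are whole reads per gene, given per orientation in the file headers. The reverse orientation, the sense one of this kit with 97.0% to 97.1% of oriented reads, was used. The deposited TPM were scaled by the authors over all genes and served for levels. Depth was 24328418 to 29210847 reads per library.

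Genes were tested with edgeR 4.0.16 (R 4.3.3, quasi-likelihood, TMM, filterByExpr, robust dispersion, group as the only term), with Benjamini-Hochberg adjustment over all 13639 genes tested and calls at 0.05. Each SE was taken as the size of the log2 difference divided by the root of F. CPM are TMM-scaled. The pipeline was tested on simulated data. DESeq2 1.42.0, limma 3.58.1 on log2(TPM + 0.5) and log2(TPM + 1), upper-quartile factors, no filter, counts of both orientations, dispersion without robust estimation, a replicate block and leaving out each library were alternatives. The text names the members, and from each list at most 4 called genes of lowest adjusted p and 2 others of highest TPM. It also names Lpl, Irf1, Socs3 and, for the 4 members with the largest changes, the 3 genes of at least 10 CPM most alike within groups. The members and lists were chosen with earlier results of these data known. Of all gene rows 186 share a symbol with another, and for a list gene with 2 rows the one with more reads was used.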

Additional observations from a re-analysis of the deposited data

Results flagged for a closer look

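The following values stood apart from the other 3 libraries of the LPL overexpression group, by the gap to the nearest library over the whole range. Selp (183 CPM), Ptgs2 (51.3 CPM), Mlph (38.5 CPM), Irf1 (286 CPM) and Socs3 (39.8 CPM) were high in replicate 4. Cd47 (160.2 CPM) and Adam17 (179 CPM) were low in replicate 1. Rela (100.2 CPM) and Rab27a (20.3 CPM) were low in replicate 2. Chance flags about 1 in 20 groups, and replicate 4 was the high library in 0.880% of all genes tested, against 0.440% to 0.741% for the other 3. Icam1 and Sele lay below this limit. Both passed when replicate 4 was left out or dispersion was not robust, and not in the fit reported.

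Reads in the antisense orientation were few at the members. Icam1 had 9 such reads in the LPL overexpression libraries and 1 in the controls, or 0.232% of its oriented reads over all libraries.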

How the results depend on the processing

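Of the 10 genes, the 6 calls (5 lower, 1 higher) held in all 15 alternatives, and no log2 fold change changed sign. Cx3cl1 and Tnfaip3 passed in none of the 15. The count of members called higher was 3 in place of 1 without robust dispersion, with the replicate block, and without LPL overexpression replicate 4. Over the 7 fits that leave out 1 library it ranged from 1 to 3. The added genes were Icam1 and Sele in each case, with adjusted p over the alternatives from 0.00252 to 0.348 for Icam1 and from 0.00702 to 0.461 for Sele. The fit with the replicate number as a block leaves out replicate 4, which has no partner, and called 8 members, as did the fit without that library. Over all genes tested, same-numbered libraries did not deviate together (r from -0.0391 to 0.0193). An r over all genes cannot exclude a shared day that affects some of them, and the labels do not say what the numbers mean. Over all genes 5155 to 5716 were called without 1 library, 4850 with DESeq2 and 5888 in the fit reported. Of called genes 50.7% were higher, 61.5% on log2(TPM + 0.5) and 61.3% on log2(TPM + 1).

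Of 270 recounts of the pathway lists, added after the data were seen, 26 moved by over 1.5 times. Rises of immediate early genes numbered 1, and 2 to 4 in 8 alternatives. Rises of sheddases numbered 1, and 2 or 3 in 10. Rises of NF-kB signalling genes were 5 in place of 3 with upper-quartile factors, those of its inhibitors 2 in place of 1 on TPM, and those of chemokines 5 in place of 3 with no filter. Falls of Weibel-Palade genes were 2 in place of 5 on TPM. Falls of JAK and STAT genes were 3 in place of 1 without replicate 4 and with the block. Depth limits Cx3cl1, with 15 to 33 reads per library.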
